A study of Mus musculus with 18 samples.

Results

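The genes described here are 40 genes of the lysosome, listed by symbol: 4 for peptidases, a thioesterase and granulin, 11 for glycosidases, 5 for sulfatases, 5 for lipid handling, 9 for membrane proteins and 6 for the proton pump. A gene counted as measured when the array carried a transcript cluster (a probe set that follows 1 transcribed locus) whose annotation names that gene alone, and the brightest such cluster stood for it. In this way 38 of the 40 genes were measured, out of 30098 genes with a cluster of their own. The beta-galactosidase gene Glb1 shares its cluster with another gene, and Atp6v0c, a subunit of the pump's membrane ring, was not analysed here.

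Expression was measured in M12-5B3, a mouse B lymphoma line without p53, with 3 arrays in each of 6 groups. USFKD no IR is a line selected in puromycin that carries lentiviral short-hairpin RNAs against Usf1 and Usf2 and was left untreated, and USFKD 1d IR and USFKD 7d IR are the same line 1 and 7 days after a dose of 5 Gy. The groups sshRNA no IR, sshRNA 1d IR and sshRNA 7d IR are a line with a scrambled short hairpin, untreated and at the same times after the same dose. This control line was also made with lentivirus and selected in puromycin. All groups grew with tetracycline, which kept recombinase transgenes of the parental line off. The paper describes clonal lines with 3 replicates per condition and does not say whether the replicates of a line come from 1 clone. The p-values measure the spread between arrays labelled as the same line and time, which may all come from 1 clone. A knockdown effect cannot be told apart from a difference between clones. Each line has only 1 untreated group, so a radiation effect cannot be told apart from time in culture.

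Lysosomes are acidic compartments in which hydrolases break down proteins, sugars, sulfated polymers and lipids. A proton pump, the V-ATPase, acidifies them, and membrane proteins protect the limiting membrane, carry out the products and release calcium. In B cells the same compartment cuts antigen into peptides for presentation. Many of these genes carry an E-box, the short palindrome CACGTG, close to the start of transcription. TFEB, TFE3 and MITF are known to act on lysosomal genes through such E-boxes, and USF1 and USF2, the factors targeted in USFKD cells, bind the same core.

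Promoters are shown first because CACGTG, the core searched for here, occurs in some of them. RefSeq promoters of build GRCm38.p6, from 250 bases before to 50 bases after the start, were searched for CACGTG, which reads the same on both strands. A gene with more than 1 promoter entry was given the highest count among its entries. Of the 38 measured genes, 33 had a promoter entry and 11 of these (33.3%) held the core. The share was 11.8% among 8996 genes above the dim limit explained below and 8.09% among all 27025 genes in the table. At least 2 cores were found in 4 of the 33 (12.1%), against 1.35% and 0.681%. TCACGTGA, a longer palindrome that contains the core, was found in 6 of the 33 (18.2%), against 2.26% and 1.12%. The promoters of Lamp1 (chr8:13158911-13159210 on the plus strand), Mcoln1 (chr8:3500269-3500568 on the plus strand), Dpp7 (chr2:25356283-25356582 on the minus strand) and Atp6v0d1 (chr8:105566015-105566314 on the minus strand) are printed because these genes held cores and were higher in USFKD cells at all 3 times. The Tpp1 promoter (chr7:105752186-105752485 on the minus strand) is printed as that of a gene with a large difference and no core. Capitals mark CACGTG, and each sequence runs 5′ to 3′ on the strand of the gene.
Lamp1 promoter: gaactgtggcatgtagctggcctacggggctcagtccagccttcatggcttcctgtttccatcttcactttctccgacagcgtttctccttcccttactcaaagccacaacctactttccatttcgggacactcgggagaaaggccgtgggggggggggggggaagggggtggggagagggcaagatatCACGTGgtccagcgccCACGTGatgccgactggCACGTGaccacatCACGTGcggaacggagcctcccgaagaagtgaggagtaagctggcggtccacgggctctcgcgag
Mcoln1 promoter: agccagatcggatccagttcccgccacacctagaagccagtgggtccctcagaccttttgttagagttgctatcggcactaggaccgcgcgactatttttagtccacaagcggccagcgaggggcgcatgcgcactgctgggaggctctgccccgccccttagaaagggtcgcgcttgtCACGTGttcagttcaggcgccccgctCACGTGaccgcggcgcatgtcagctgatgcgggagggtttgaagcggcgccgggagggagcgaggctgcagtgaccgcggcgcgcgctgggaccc
Dpp7 promoter: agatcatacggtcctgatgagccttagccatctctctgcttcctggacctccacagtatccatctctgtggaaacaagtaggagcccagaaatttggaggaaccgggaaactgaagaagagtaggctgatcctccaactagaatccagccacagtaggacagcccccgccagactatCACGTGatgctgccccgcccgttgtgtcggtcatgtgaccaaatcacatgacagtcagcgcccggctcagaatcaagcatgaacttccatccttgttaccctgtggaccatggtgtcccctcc
Atp6v0d1 promoter: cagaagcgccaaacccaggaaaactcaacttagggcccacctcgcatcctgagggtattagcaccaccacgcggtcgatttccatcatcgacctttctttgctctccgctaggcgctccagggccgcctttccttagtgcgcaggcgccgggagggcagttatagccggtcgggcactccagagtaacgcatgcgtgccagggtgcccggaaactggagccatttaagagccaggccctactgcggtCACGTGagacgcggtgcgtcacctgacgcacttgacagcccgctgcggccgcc
Tpp1 promoter: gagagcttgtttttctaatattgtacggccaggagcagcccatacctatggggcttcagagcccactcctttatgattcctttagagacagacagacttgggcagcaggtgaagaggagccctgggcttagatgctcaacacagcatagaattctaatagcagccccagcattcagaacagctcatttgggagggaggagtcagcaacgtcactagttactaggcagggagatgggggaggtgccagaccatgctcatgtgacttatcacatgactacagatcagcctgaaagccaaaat

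For the other 7 measured genes with a core, 10 bases on either side are shown, so that the flanks of the capitals can be compared. In Cln3 both cores lie in 1 of its 2 promoter entries (chr7:126583187-126583486 on the minus strand). The other entry, at chr7:126585768-126586067, held none, and Cln3 was counted above by the entry with cores.
Naglu: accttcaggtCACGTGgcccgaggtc
Gaa: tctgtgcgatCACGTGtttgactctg
Cln3, upstream core: aaccctcaagCACGTGatggaaggct
Cln3, downstream core: cgggtactgtCACGTGacccccaacc
Arsa: aactcagtgtCACGTGttgtctgctc
Atp6v1a: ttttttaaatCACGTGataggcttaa
Sgsh: gcctgccgtgCACGTGaccgtgggga
Gla, upstream core: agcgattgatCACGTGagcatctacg
Gla, downstream core: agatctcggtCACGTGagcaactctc

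Lamp1, a major glycoprotein of the lysosomal membrane, held 4 cores, whose first bases lie 61, 45, 28 and 15 bases before the start. None of them was part of the longer palindrome. Mcoln1, the calcium channel of the lysosome, held cores at 71 and 45 bases before the start, and the core nearer to the start was part of the longer palindrome. In Atp6v0d1 the core began 3 bases before the start, and in Dpp7 and Naglu it began 73 bases before it. Both cores of Gla, at 227 and 194 bases before the start, were part of the longer palindrome. A match is a description of these letters and not of binding.

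**Figure D1:**
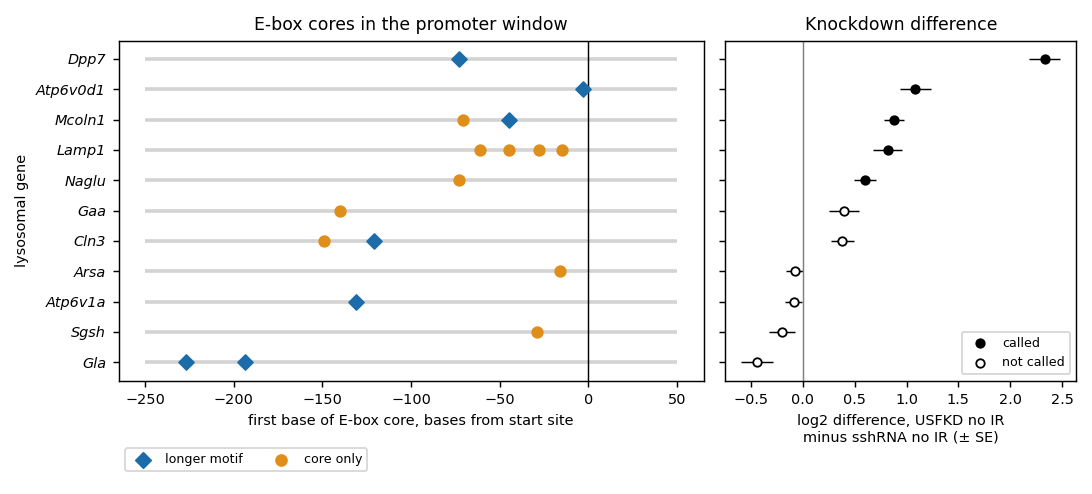
Left, position of each E-box core in the promoter window of the 11 measured lysosomal genes that hold one, in bases from the start site (diamonds, core within the longer palindrome; circles, core only). Right, log2 difference between USFKD no IR and sshRNA no IR (± SE, 3 arrays per group; filled, called). The 5 called genes, Dpp7, Atp6v0d1, Mcoln1, Lamp1 and Naglu, were all higher in USFKD no IR, and Gla, with 2 cores, had the lowest difference at -0.44. For Cln3 the positions are from the start of the promoter entry with cores.

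A gene was called where limma's Benjamini-Hochberg adjusted p, over all 72688 rows of the array, was under 0.05 and the fold change was over 1.5. Values are log2 intensities, on a scale that does not allow the levels of different genes to be compared. A dim limit of 4.66 was taken from 1717 genes for smell and pheromone receptors, 95% of which lay under it, and all 38 measured genes had a mean above it, with 15543 genes above it in all. Negative controls averaged 5.18 to 5.97 per array, more than this limit, so a mean above it does not by itself show expression. Arsa, with a mean of 5.13, and Cd63, with 5.70, lay no higher than that range. Usf2 fell in USFKD no IR by 2.15 and 1.32 in its 2 clusters, while Usf1 had a difference of -0.07 and was not called. The Usf1 means, 5.17 in USFKD no IR and 5.24 in sshRNA no IR, also lay no higher than the range of the negative controls. This cluster therefore cannot show whether Usf1 RNA fell. The paper reports reduced USF1 protein in USFKD cells by Western blot. B cell markers lay above the dim limit in 8 of 8 measured genes, plasma cell markers in 4 of 4, T cell markers in 0 of 4 and macrophage and dendritic cell markers in 2 of 12. Among those above it, the plasma cell marker Sdc1 (group means of 4.92 to 5.05) and the macrophage marker Marco (4.79 to 5.11) lay under the averages of the negative controls. Hybridization spikes averaged 11.4 to 11.8 on the 6 arrays at 7 days and 10.6 to 11.1 on the other 12. In the USFKD 7d IR comparison with USFKD no IR 14.4% of 5222 negative control rows were called, and in that of sshRNA 7d IR with sshRNA no IR 23.7%. Those shares were 2.14%, 0.728% and 5.74% in the knockdown comparisons without irradiation, at 1 day and at 7 days. Most control rows called between 7d IR and no IR were higher at 7 days, 727 of 752 in USFKD cells and 1207 of 1238 in sshRNA cells.

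**Figure D2:**
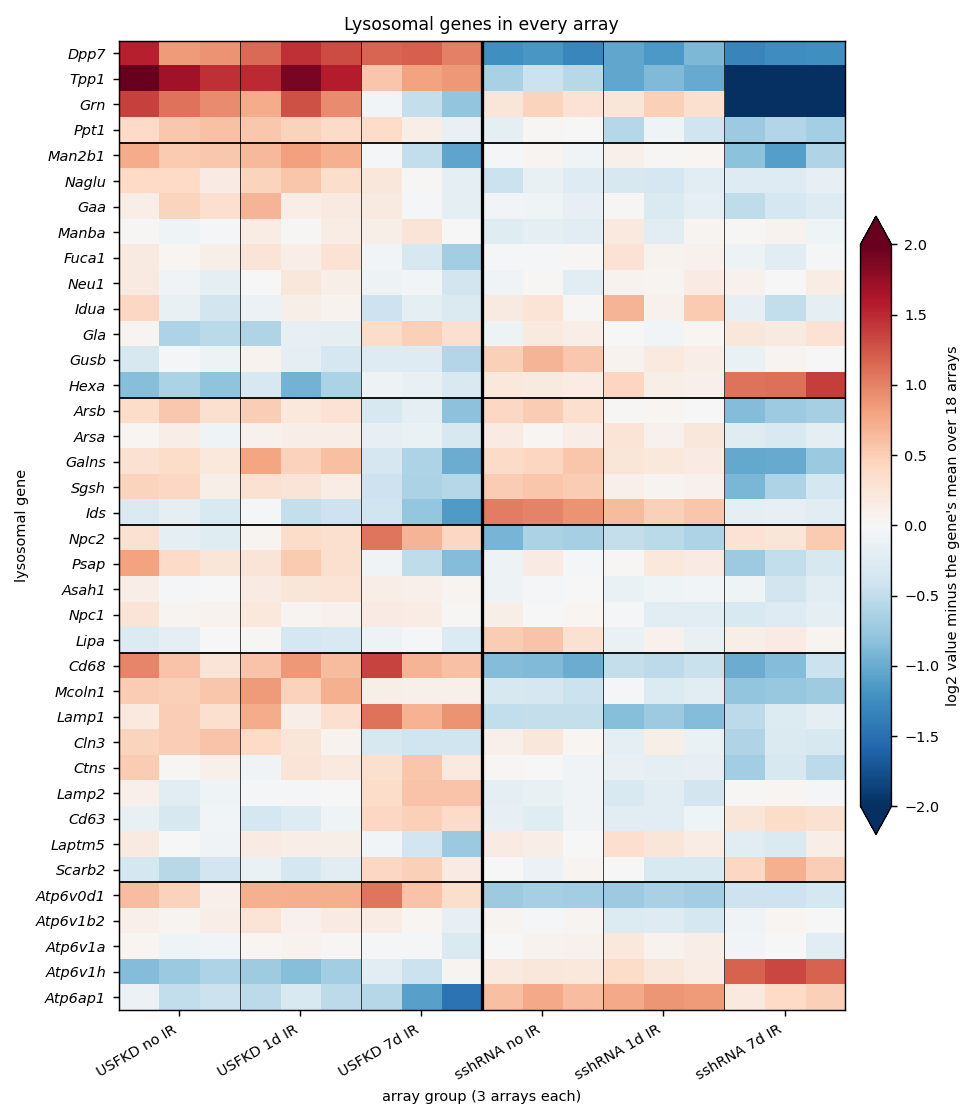
Log2 value of each of the 38 measured lysosomal genes in each of the 18 arrays, minus the mean of that gene over all arrays (colour scale from -2 to 2). Rows are grouped by role and columns by group, with USFKD left of the thick line and sshRNA right of it; Dpp7, Tpp1, Cd68, Mcoln1, Lamp1 and Atp6v0d1 are higher throughout the USFKD columns, and Atp6v1h and Atp6ap1 are lower.

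The first question was how the lysosomal genes of the untreated USFKD line differ from those of the scrambled control. In USFKD no IR 9 of the 38 genes were higher than in sshRNA no IR and 6 were lower. That is 39.5% of the genes, against 13% of the 15543 genes above the dim limit, of which 4.5% were higher and 8.51% lower. The 38 genes were chosen with earlier results of these data known, so these shares, here and below, describe a chosen set. The set was also brighter, with medians of 8.95 to 9.58 on the untreated arrays, against 7.56 to 7.70 for all genes above the limit. The median difference was 0.07 over the 38 genes and -0.02 over all genes above the limit, with 22 of the 38 differences above 0 and 16 below. At 1 day after irradiation 9 genes were higher in USFKD cells and 4 lower (34.2%, against 10.3% of the genes above the limit, 5.24% higher and 5.09% lower). At 7 days 9 were higher and 3 lower (31.6%, against 16.5% of the genes above the limit, 7.31% higher and 9.18% lower). Values of USFKD and sshRNA arrays did not overlap for 25 of the 38 genes without irradiation, 28 at 1 day and 22 at 7 days, against 50.8%, 41.5% and 43.5% of all genes above the limit.

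The 3 comparisons use different arrays of the same 2 lines. Tpp1, Dpp7, Lamp1, Cd68, Mcoln1 and Atp6v0d1 were higher in USFKD cells in all 3, and Hexa, Atp6ap1 and Atp6v1h were lower in all 3. These are 9 of 38 genes, against 753 of the 15543 genes above the limit (4.84%) called in the same direction each time. Of the other genes, 5 were higher at 1 or 2 of the times, 3 were lower at 1 or 2 of the times, and 21 were called at none. No gene was called in opposite directions at different times.

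**Figure D3:**
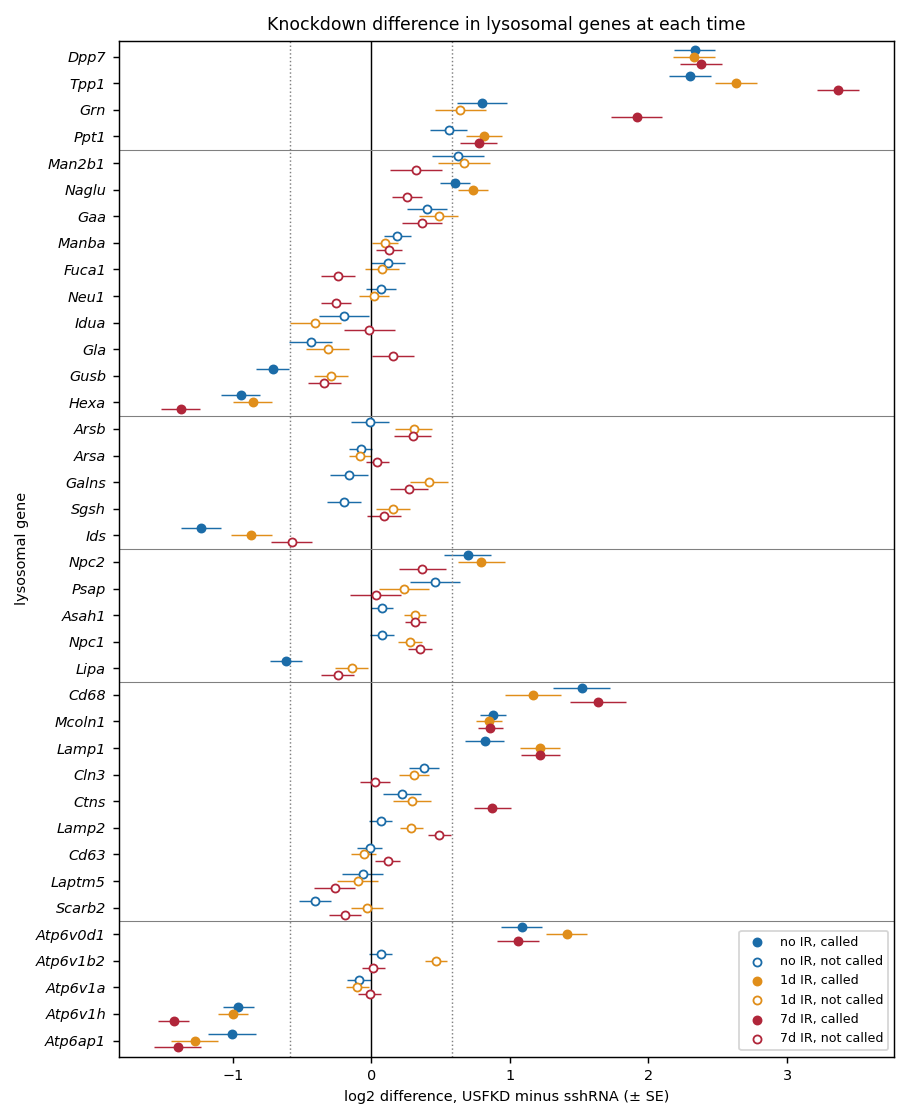
Log2 difference, USFKD minus sshRNA (± SE, 3 arrays per group), for the 38 lysosomal genes without irradiation, 1 day and 7 days after 5 Gy; filled points were called, and dotted lines mark a fold change of 1.5. Dpp7 and Tpp1 lie above 2 at every time, and Hexa, Atp6v1h and Atp6ap1 lie to the left of the lower dotted line at every time.

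Among the 4 genes for peptidases, the thioesterase and granulin, all were higher in USFKD cells at 1 or more times and none was lower. Tpp1, which encodes tripeptidyl peptidase, an enzyme that removes tripeptides from protein ends, had values of 14.12, 13.68 and 13.48 in USFKD no IR, against 11.36, 11.58 and 11.45 in sshRNA no IR. The lowest USFKD array lay far above the highest sshRNA array. This difference was 2.30 ± 0.15 (SE), 4.92-fold (adjusted p = 2.05e-07). At 1 day it was 2.63, 6.20-fold, and at 7 days Tpp1 read 12.56, 12.81 and 12.88 in USFKD 7d IR, against 9.42, 9.49 and 9.24 in sshRNA 7d IR, a 10.3-fold difference (3.37 ± 0.15). The values of both lines at 7 days were below their untreated values.

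Dpp7 encodes a dipeptidyl peptidase of intracellular vesicles that is known to be active in resting lymphocytes. Its values were 8.79, 8.08 and 8.12 in USFKD no IR, against 6.01, 6.06 and 5.92 in sshRNA no IR, a 5.04-fold difference (2.33 ± 0.15, adjusted p = 1.78e-07). The difference stayed at 2.33 at 1 day and 2.38 at 7 days, and no USFKD array came within 1 log2 unit of an sshRNA array of its time. In sshRNA 7d IR the Dpp7 mean of 5.96 lay close to the negative controls, which averaged 5.81 to 5.93 on those arrays. Ppt1, the thioesterase that removes palmitate from proteins, differed by 0.56, 0.81 and 0.77 without irradiation, at 1 day and at 7 days. It was called at 1 and 7 days, while the fold change of 1.47 without irradiation lay under the threshold.

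Grn encodes progranulin, a secreted and lysosomal protein that is cut into granulins. It had values of 12.13, 11.85 and 11.71 in USFKD no IR, against 11.01, 11.22 and 11.06 in sshRNA no IR (0.80 ± 0.18, 1.74-fold, adjusted p = 0.0123). Without sshRNA no IR replicate 1 this adjusted p was 0.0514, and without USFKD no IR replicate 1 it was 0.0696. At 1 day the difference of 0.64 was not called (adjusted p = 0.0552). At 7 days values of 10.71, 10.29 and 9.98 in USFKD 7d IR stood against 8.17, 8.44 and 8.63 in sshRNA 7d IR, a 3.77-fold difference (1.91 ± 0.18).

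**Figure D4:**
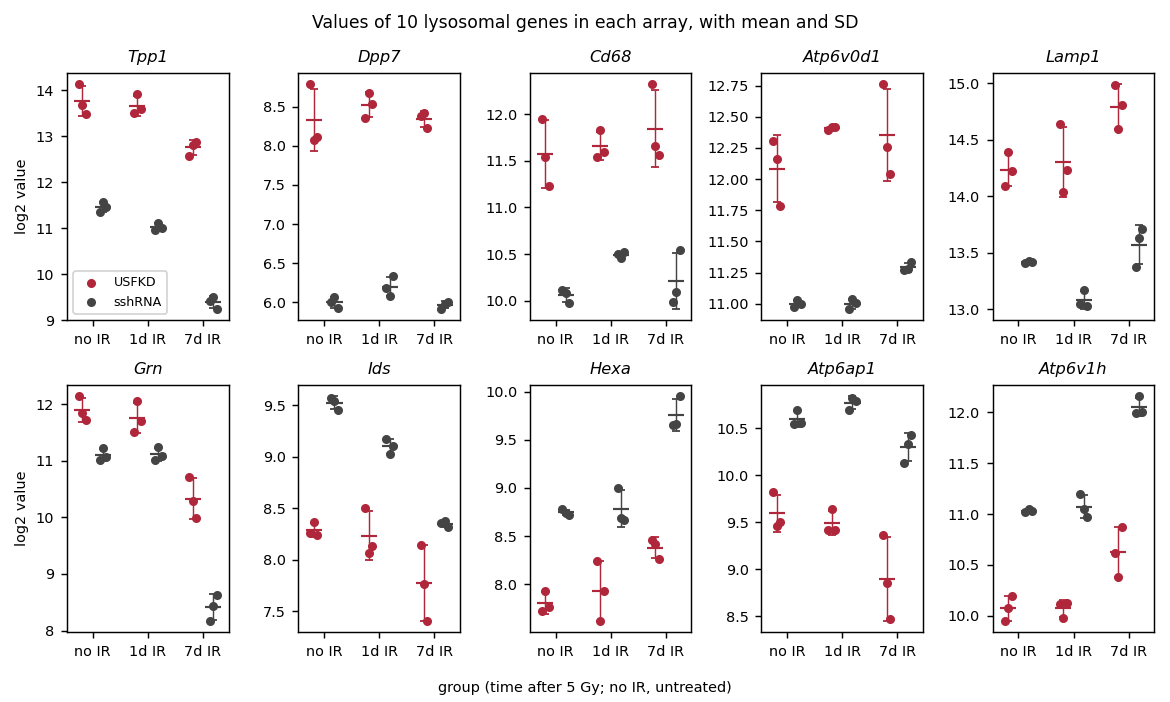
Log2 values of 10 lysosomal genes in each of the 18 arrays (points), with group mean (horizontal line) and SD (bar, 3 arrays), USFKD left of sshRNA at each time. In the upper row all 3 USFKD arrays lie above all 3 sshRNA arrays at every time; in the lower row this holds for Grn, and for Ids, Hexa, Atp6ap1 and Atp6v1h the USFKD arrays lie below.

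Glycosidases did not share a direction. Of the 10 measured, 1 was higher and 2 were lower in USFKD no IR, with a median difference of 0.09. Hexa, the alpha subunit of the beta-hexosaminidase that degrades the ganglioside GM2, had values of 7.72, 7.93 and 7.77 in USFKD no IR, against 8.78, 8.74 and 8.72 in sshRNA no IR. It fell by 0.94 ± 0.14 (1.92-fold, adjusted p = 0.000501), and by 0.85 at 1 day. At 7 days, with values of 8.46, 8.42 and 8.26 in USFKD 7d IR against 9.65, 9.67 and 9.95 in sshRNA 7d IR, it fell by 1.38. The groups did not overlap at any time.

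Gusb, the beta-glucuronidase that removes glucuronic acid from glycosaminoglycans, fell by 0.71 ± 0.12 in USFKD no IR (7.99, 8.28 and 8.20 against 8.79, 8.98 and 8.84 in sshRNA no IR). Its differences of -0.29 at 1 day and -0.34 at 7 days were not called. Naglu, which removes N-acetylglucosamine from heparan sulfate, had values of 7.11, 7.11 and 6.88 in USFKD no IR, against 6.28, 6.56 and 6.46 in sshRNA no IR (0.60 ± 0.11, 1.52-fold). That fold change stood just past the threshold, and leaving out sshRNA no IR replicate 1, or USFKD no IR replicate 1 or 2, put the difference between 0.52 and 0.56, under it, as did cyclic loess scaling (0.56). At 1 day Naglu was 1.67-fold higher, and at 7 days its difference of 0.26 was not called.

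The other 7 glycosidase genes were called in no knockdown comparison. Man2b1, a lysosomal alpha-mannosidase, had differences of 0.63 and 0.67 without irradiation and at 1 day, with adjusted p of 0.0581 and 0.0511, and its arrays did not overlap between the lines at either time. Gaa, which degrades glycogen, had differences of 0.40, 0.49 and 0.37. Gla, which degrades globotriaosylceramide, had differences of -0.44, -0.32 and 0.16. Fuca1, Idua, Manba and Neu1 had differences between -0.40 and 0.19 over the 3 times.

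Sulfatases remove sulfate groups from glycosaminoglycans and sulfolipids, and 1 of 5 differed between the lines. Ids, the iduronate sulfatase, had values of 8.26, 8.37 and 8.24 in USFKD no IR, against 9.57, 9.54 and 9.45 in sshRNA no IR. It fell by 1.23 ± 0.15 (2.35-fold, adjusted p = 7.21e-05), the lowest difference of the 38 genes in that comparison. At 1 day it fell by 0.87, and at 7 days the difference of -0.58 came to a fold change of 1.49, under the threshold. Arsa, Arsb, Galns and Sgsh had differences between -0.20 and 0.42 over the 3 times, and none was called.

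Of the 5 genes for lipid handling, Npc2 was higher and Lipa lower in USFKD no IR. Npc2 is the soluble protein that hands cholesterol to the membrane protein Npc1. Its values were 7.62, 7.15 and 7.08 in USFKD no IR, against 6.40, 6.70 and 6.67 in sshRNA no IR (0.70 ± 0.17, adjusted p = 0.0184). The call was lost without sshRNA no IR replicate 1 (0.60, adjusted p = 0.0895) and without USFKD no IR replicate 1 (0.53, adjusted p = 0.101). At 1 day Npc2 was 1.73-fold higher, and at 7 days the difference of 0.37 was not called.

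Lipa, the acid lipase that frees cholesterol from its esters, read 12.83, 12.91 and 13.09 in USFKD no IR, against 13.60, 13.67 and 13.41 in sshRNA no IR. It fell by 0.62 ± 0.12 (1.53-fold), and by 0.56 without sshRNA no IR replicate 2 or without USFKD no IR replicate 1, where the fold change was under the threshold. The call was also lost with cyclic loess scaling (-0.57) and with arrays centred on bright clusters (-0.55). Its differences at 1 and 7 days, -0.14 and -0.24, were not called. Asah1, Npc1 and Psap, the acid ceramidase, the cholesterol transporter and the precursor of the saposins, had differences between 0.03 and 0.46 over the 3 times, with no call.

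Membrane proteins were higher or not called: 3 of 9 were higher in USFKD cells without irradiation, 3 at 1 day and 4 at 7 days, and none was lower. Cd68, a heavily glycosylated relative of the LAMP proteins best known from macrophages, had values of 11.95, 11.54 and 11.23 in USFKD no IR, against 10.11, 10.09 and 9.97 in sshRNA no IR (1.52 ± 0.20, 2.86-fold, adjusted p = 0.000195). It was 2.25-fold higher at 1 day and 3.11-fold higher at 7 days. Of 12 macrophage and dendritic cell markers, 10 had a mean under the dim limit, among them Csf1r, Cd14, Itgam and Lyz2. Adgre1, a surface receptor typical of macrophages, was the marker that moved with Cd68: its mean was 6.81 in USFKD no IR and 4.51 in sshRNA no IR, a difference of 2.29, and 2.28 and 2.44 at 1 and 7 days. Its sshRNA means, 4.51, 4.50 and 4.65 in time order, lay under the dim limit and under the averages of the negative controls. The size of these differences is therefore uncertain. The log2 values of the 12 markers summed to 52.4 to 52.9 in the arrays of USFKD no IR and to 50.0 to 50.6 in those of sshRNA no IR. The sums were 51.2 to 52.3 and 48.3 to 51.0 at 1 day, and 52.9 to 53.1 and 50.6 to 52.0 at 7 days. The gap lay in Adgre1: the other 11 markers summed to 45.7 to 45.9 in USFKD no IR and 45.5 to 46.1 in sshRNA no IR, to 44.4 to 45.6 and 43.8 to 46.5 at 1 day, and to 45.8 to 46.0 and 46.0 to 47.3 at 7 days. In cultures measured in bulk, a change in how many cells express a gene and a change per cell cannot be told apart.

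Lamp1 had values of 14.09, 14.39 and 14.22 in USFKD no IR, against 13.41, 13.43 and 13.42 in sshRNA no IR, a 1.76-fold difference (0.82 ± 0.14, adjusted p = 0.00182). The difference was 1.22 at both later times, 2.32-fold at 1 day and 2.33-fold at 7 days. Its relative Lamp2, which is also needed for the fusion of autophagosomes with lysosomes, had differences of 0.07, 0.29 and 0.49 and was not called. Mcoln1, whose promoter held 2 cores, differed by a similar amount each time. Its values were 7.27, 7.24 and 7.32 in USFKD no IR, against 6.44, 6.42 and 6.33 in sshRNA no IR, and the differences were 0.88, 0.85 and 0.86 (SE 0.09 each).

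Ctns, the transporter that carries cystine out of the lysosome, was called at 7 days, with values of 8.81, 9.05 and 8.69 in USFKD 7d IR against 7.79, 8.17 and 7.96 in sshRNA 7d IR (0.87 ± 0.14, 1.83-fold). Without irradiation and at 1 day it had differences of 0.22 and 0.29. Cd63, Cln3, Laptm5 and Scarb2, the last of which carries beta-glucocerebrosidase to the lysosome, had differences between -0.41 and 0.38 over the 3 times, with no call.

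Genes of the proton pump were called in both directions. Atp6v0d1, the subunit that joins the membrane ring to the central stalk, had values of 12.30, 12.16 and 11.79 in USFKD no IR, against 10.97, 11.03 and 11.00 in sshRNA no IR. It was 2.12-fold higher (1.08 ± 0.15, adjusted p = 0.000242), 2.66-fold at 1 day and 2.08-fold at 7 days. Atp6v1h, the regulatory subunit of the catalytic sector, went the other way. Its values were 9.95, 10.07 and 10.20 in USFKD no IR, against 11.02, 11.05 and 11.03 in sshRNA no IR, so that it fell by 0.96 ± 0.11 (1.94-fold), and it fell by 1.00 at 1 day and 1.43 at 7 days.

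Atp6ap1, an accessory protein of pump assembly, had values of 9.82, 9.45 and 9.50 in USFKD no IR, against 10.55, 10.69 and 10.55 in sshRNA no IR. It fell by 1.01 ± 0.17 (2.01-fold, adjusted p = 0.0015), by 1.28 at 1 day and by 1.40 at 7 days. Atp6v1a and Atp6v1b2, which form the catalytic head, had differences of -0.09 and 0.07 without irradiation. Atp6v1b2 reached 0.47 at 1 day with an adjusted p of 0.00228, and its fold change of 1.38 was under the threshold.

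Set against the promoters, 5 of the 11 measured genes with CACGTG were higher in USFKD no IR and none was lower, with a median difference of 0.40. Of the 22 genes with a promoter entry and no core, 4 were higher and 5 lower, with a median of 0.07. At 1 day 5 of the 11 were higher and none lower (median 0.49), against 4 higher and 3 lower of the 22 (median 0.09). At 7 days 4 of the 11 were higher and none lower (median 0.26), against 5 higher and 2 lower of the 22 (median 0.07). Among all genes above the dim limit, 1059 held the core, and 5.48% of them were higher in USFKD no IR and 12.1% lower. For the 7937 without it the shares were 5.08% and 9.1%. At 1 day 6.23% of the 1059 were higher and 8.12% lower, against 5.83% and 6.04% of the 7937, and at 7 days 9.35% and 7.93%, against 9.41% and 6.63%. Without irradiation, Tpp1, Cd68, Grn and Npc2 were higher and had no core in the window. Ppt1, higher at 1 and 7 days, and Ctns, higher at 7 days, had none either.

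Differences between these clones were uneven along the genome. Among genes above the limit, 13% on chromosome 11 were higher in USFKD no IR (median 0.16), where Cd68, Ctns, Gaa, Grn, Naglu and Sgsh lie. On chromosome 12, that of Npc2, 14.1% were higher (median 0.17). On chromosome X, where Atp6ap1, Gla, Ids and Lamp2 lie, 22.4% were lower (median -0.18), and on chromosome 9, that of Hexa, 22% were lower (median -0.22). Chromosome 8, with 7 of the genes, Lamp1, Mcoln1 and Atp6v0d1 among them, had a median of -0.005. After subtraction of the chromosome median the differences were 1.36 for Cd68, 0.64 for Grn, 0.52 for Npc2, 0.44 for Naglu, -0.72 for Hexa, -0.83 for Atp6ap1 and -1.05 for Ids.

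The 5 annotated genes on either side were read for the 3 genes with a difference over 1.5 in size in USFKD no IR. Above the dim limit lay 7 of 10 neighbours of Tpp1, 5 of 10 of Dpp7 and 8 of 10 of Cd68. In that comparison none of 10 neighbours of Tpp1 was called (median -0.03), and none of 10 neighbours of Dpp7 (median -0.002). Around Cd68, 4 of 10 neighbours were higher (median 0.47), namely Gm25835 at 1.60 (adjusted p = 0.0011), above the 1.52 of Cd68 itself, Polr2a at 1.22, Fxr2 at 0.70 and Senp3 at 0.66. The part of copy number or of the lines' history in these values was not tested.

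Other genes of the same pathway were counted from further lists in the untreated comparison, where 4.5% of all genes above the limit were higher and 8.51% lower. List counts cover every measured gene, also those under the limit. Above it lay 19 of 22 other enzymes, 18 of 20 membrane proteins, 8 of 11 cathepsins and 17 of 20 V-ATPase genes. For delivery genes this was 18 of 18, and for E-box factors and their control 20 of 22. Of 22 other lysosomal enzymes and activators 7 were higher and none lower (median 0.30). Among them were Pld4, a nuclease of the phospholipase D family, at 1.84, the asparagine endopeptidase Lgmn at 0.82, the carboxypeptidase Scpep1 at 0.82, and protective protein Ctsa at 0.69. Of 20 other membrane proteins 5 were higher and none lower (median 0.07), with the amino acid sensor Slc38a9 at 1.01, the chloride-proton exchanger Clcn7 at 0.99, Laptm4b at 0.96 and the amino acid transporter Slc36a1 at 0.90.

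Cathepsins, the main lysosomal proteases, did not follow Tpp1 and Dpp7. Of 11 measured, Ctso was higher (0.65), and Ctse and Ctss were lower. Ctse, an aspartic protease of the endosomes, averaged 8.49 in USFKD no IR and 13.27 in sshRNA no IR, so that it fell by 4.78. Ctss, which trims the invariant chain of MHC class II in B cells, fell by 1.13. Of 20 further V-ATPase subunits and assembly factors 3 were higher and 3 lower, with Atp6v0b at 0.89, and Ccdc115 and Vma21, both assembly factors, at -1.33 and -1.16, and Atp6v0e at -0.76.

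Of 18 genes for delivery of enzymes to the lysosome 3 were higher and 1 lower. The mannose 6-phosphate receptor Igf2r differed by 1.02, the adaptor Gga3 by 0.92 and the tethering subunit Vps41 by 0.81. Gnptab, the transferase that starts the mannose 6-phosphate tag, fell by 1.26. Of 22 genes for E-box factors and their control none was higher, and Usf2 and the scaffold gene Lamtor3 (-0.71) were lower. Tfeb, Tfe3 and Mitf were in that list and were not called.

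Among all genes above the limit 5.24% were higher and 5.09% lower at 1 day, and 7.31% and 9.18% at 7 days. At these times the other enzymes were higher in 6 and lower in 0 of 22 at 1 day, and the same numbers were found at 7 days. Pld4 was at 2.01 at 1 day and at 0.49 at 7 days, where it was not called (1.41-fold), and Ctsa was at 1.12 at 1 day and 1.16 at 7 days. Other membrane proteins were higher in 3 and lower in 0 at 1 day, and higher in 4 and lower in 1 at 7 days. Cathepsins were higher in 1 and lower in 2 at both times, with Ctse at -4.29 and -3.50. Further V-ATPase genes were higher in 1 and lower in 1 at 1 day, and higher in 3 and lower in 4 at 7 days. Delivery genes were higher in 3 and lower in 1 at 1 day, and higher in 6 and lower in 1 at 7 days, when Vps41 reached 1.85. E-box factors and their control were higher in 0 and lower in 2 at 1 day, and at 7 days Max was higher, by 0.79, and 3 were lower.

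The second question was how the lysosomal genes changed after 5 Gy in each line. At 1 day none of the 38 was called in either line. The smallest adjusted p was 0.525 in USFKD cells, where no cluster of the whole array was called. In sshRNA cells, where 3.16% of genes above the limit were called (2.22% higher and 0.939% lower), Lipa came closest (-0.53, adjusted p = 0.0254, fold change 1.44). Without sshRNA no IR replicate 3 or without sshRNA 1d IR replicate 2, it was called and the count was 1.

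At 7 days 4 genes were higher and 9 lower in USFKD 7d IR than in USFKD no IR (34.2%, against 18.9% of the genes above the limit). In sshRNA 7d IR 3 were higher and 9 lower than in sshRNA no IR (31.6%, against 31.5%), a share close to the background. By direction, 9.81% of the genes above the limit were higher and 9.14% lower in USFKD 7d IR, and in sshRNA 7d IR 15.1% were higher and 16.3% lower. Medians over the 38 genes were -0.18 in the USFKD line and -0.25 in the sshRNA line, against 0.01 and -0.02 over all genes above the limit. The arrays at 7 days also differed from the others in their spikes and controls, as given above, and the part of this in the changes was not tested.

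Tpp1, Grn, Man2b1, Arsb, Galns and Sgsh were lower at 7 days in both lines. Grn had values of 10.71, 10.29 and 9.98 in USFKD 7d IR, against 12.13, 11.85 and 11.71 in USFKD no IR, and so fell by 1.57 (2.97-fold). In the scrambled line it read 8.17, 8.44 and 8.63 in sshRNA 7d IR, against 11.01, 11.22 and 11.06 in sshRNA no IR, and so fell by 2.68 (6.43-fold). No irradiated array overlapped an untreated array in either line. Tpp1 fell by 1.01 in USFKD cells and by 2.08 in sshRNA cells.

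Galns, Sgsh and Arsb, which fell in both lines, are sulfatases. Galns, which acts on keratan sulfate and chondroitin sulfate, had values of 7.18, 6.90 and 6.52 in USFKD 7d IR, against 7.82, 7.89 and 7.73 in USFKD no IR (-0.94 ± 0.14). In sshRNA 7d IR it had 6.50, 6.52 and 6.78, against 7.91, 7.95 and 8.07 in sshRNA no IR (-1.38 ± 0.14). Sgsh, the heparan sulfamidase, fell by 0.86 in USFKD cells and by 1.15 in sshRNA cells. Arsb, which acts on dermatan sulfate, fell by 0.86 and by 1.17 in its brighter cluster, while the mean of its 2 clusters changed by -0.36 and -0.43, under the fold threshold. Man2b1 fell by 1.13 in USFKD cells and by 0.83 in sshRNA cells.

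Npc2 was the gene called higher at 7 days in both lines. It had 8.39, 8.01 and 7.73 in USFKD 7d IR, against 7.62, 7.15 and 7.08 in USFKD no IR (0.76 ± 0.17), and 7.62, 7.56 and 7.85 in sshRNA 7d IR, against 6.40, 6.70 and 6.67 in sshRNA no IR (1.09 ± 0.17). Hexa and Atp6v1h, both lower in USFKD cells at every time, were called higher in sshRNA 7d IR, by 1.01 and 1.02. In USFKD 7d IR their changes of 0.58 and 0.55 had adjusted p of 0.0102 and 0.00294 and lay just under the fold threshold.

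Other calls were made in 1 line. In USFKD 7d IR Scarb2 (0.78), Gla (0.75) and Cd63 (0.59) were higher, and Psap (-0.96), Cln3 (-0.88) and Atp6ap1 (-0.69) were lower. Cd63 averaged 5.53 in USFKD no IR and 6.12 in USFKD 7d IR. Negative controls averaged 5.36 to 5.48 and 5.89 to 5.97 on the same arrays, and their part in this rise was not tested. The call for Cd63 was lost without USFKD no IR replicate 2 (0.52) or without USFKD 7d IR replicate 2 (0.56), with cyclic loess scaling (0.44) and with arrays centred on bright clusters (0.45). That for Atp6ap1 was lost without USFKD no IR replicate 1 (-0.58, adjusted p = 0.0551) or without USFKD 7d IR replicate 3 (-0.48, adjusted p = 0.0501). In sshRNA 7d IR Ids (-1.17), Ppt1 (-0.61) and Gusb (-0.59) were lower. Ppt1 lost its call without sshRNA no IR replicate 2 or 3 or sshRNA 7d IR replicate 1 (-0.57, -0.58 and -0.58) and with cyclic loess scaling (-0.57), and Gusb without sshRNA no IR replicate 2 (-0.53) or sshRNA 7d IR replicate 1 (-0.54).

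**Figure D5:**
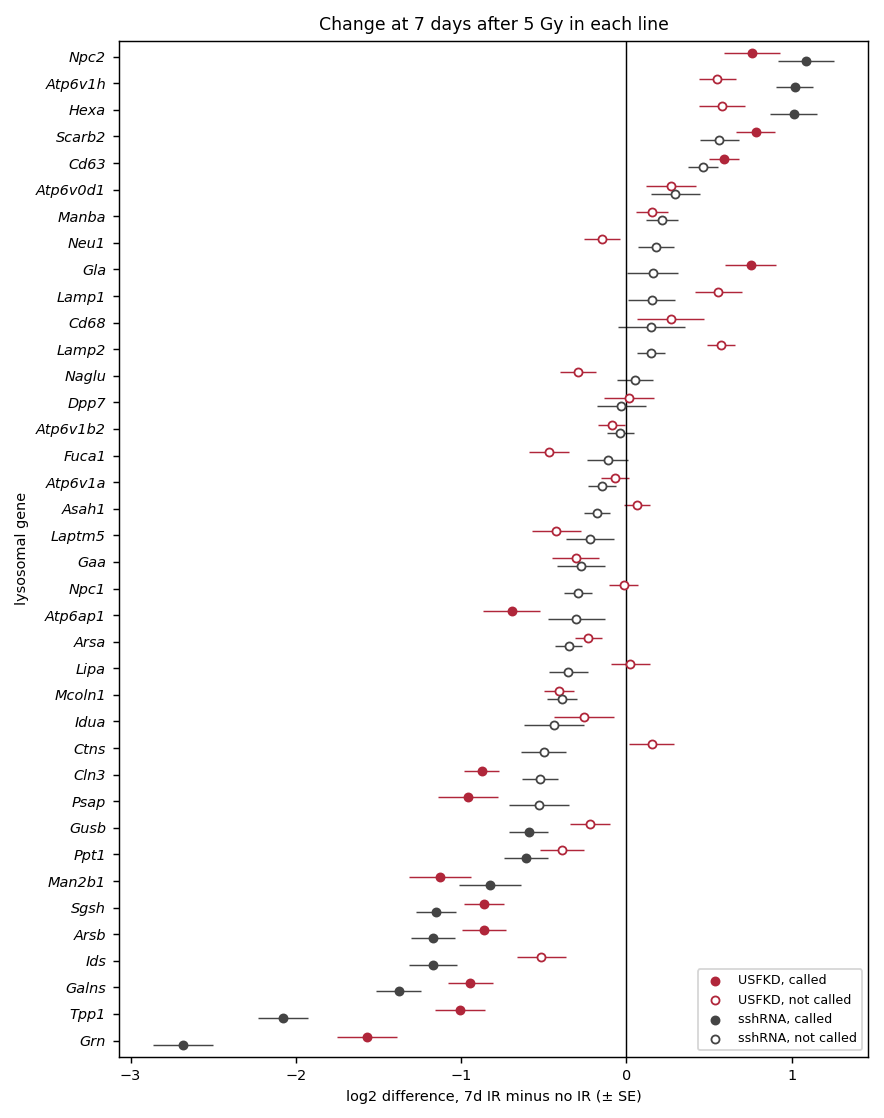
Log2 difference, 7d IR minus no IR (± SE, 3 arrays per group), for the 38 lysosomal genes in USFKD cells and in sshRNA cells, ordered by the value in sshRNA cells; filled points were called. Grn and Tpp1 have the lowest values in sshRNA cells, at -2.68 and -2.08, and Npc2 has the highest value there at 1.09.

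Whether the 2 lines changed by different amounts was tested by subtracting the change in sshRNA cells from that in USFKD cells. At 1 day none of the 38 was called, and 0 of the 15543 genes above the limit. At 7 days 2 were called, Tpp1 and Grn (5.26%, against 5.57% of the genes above the limit, with 3.82% higher and 1.74% lower), a share close to the background. Tpp1 changed by -1.01 in USFKD cells and by -2.08 in sshRNA cells, a difference of 1.07 ± 0.21 (adjusted p = 0.019). Grn changed by -1.57 in USFKD cells and by -2.68 in sshRNA cells, a difference of 1.12 ± 0.26 (adjusted p = 0.0363). The fall was smaller in USFKD cells for both genes. For the other genes called in 1 line at 7 days a difference between the lines was not shown, as with Ids (0.65, adjusted p = 0.117) and Gla (0.59, adjusted p = 0.176). Without sshRNA no IR replicate 2 neither gene was called (adjusted p = 0.0586 for Tpp1 and 0.0954 for Grn), and without USFKD no IR replicate 1 or USFKD 7d IR replicate 3 there were 4 calls. The added genes were Ctns and Gla in the first case and Atp6v1h and Ids in the second. With only the arrays compared Tpp1 lost its call (adjusted p = 0.0551). The call for Grn was lost without any 1 of 9 of the 12 arrays, with cyclic loess scaling, with arrays centred on bright clusters, without variance moderation, with only the arrays compared and with the replicate block (adjusted p between 0.0507 and 0.0954).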

How the data were processed

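For each of 18 Affymetrix Mouse Transcriptome 1.0 arrays the authors deposited log2 intensities made by robust multi-array averaging (RMA), which corrects background, normalizes quantiles between arrays and summarises probes. The submitters' processing notes name Affymetrix Expression Console and RMA, and a version is not given in the sources used here. In 1339 of 72688 rows a value exceeds 16, the limit of a 16-bit scanner on this scale, so the path from scan to value is not fully known. Sample labels and the methods differ in the amount of RNA per array.

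No value was rescaled. Rows were 65956 transcript clusters and 6732 controls. Of the clusters 30638 carry 1 gene symbol, 2176 several and 33142 none, and those with 1 were matched to the RefSeq gene table of GRCm38.p6 by Entrez ID (22596), symbol (7710) or former symbol (330). One model with 6 group means was fitted to all rows with limma 3.58.1 in R 4.3.3, leaving 12 residual degrees of freedom to which variance moderation added 2.65, and p-values were adjusted over all rows in each of 9 comparisons. The number of arrays limits the precision. Promoters are RefSeq sequences searched with Python 3.11.15. The fit was tested on simulated data.

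Named are all listed lysosomal genes, Usf1 and Usf2, up to 4 called genes of each further list with the largest change, and 5 neighbours on either side of a member with a difference over 1.5; cell type markers are given as levels. The members and lists were chosen with earlier results of these data known. Alternatives were cyclic loess, centring on bright clusters, leaving out dim clusters, array weights, no variance moderation, only the arrays compared, averaging a gene's clusters, the replicate number as a block, and leaving out each array.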

Additional observations from a re-analysis of the deposited data

Results flagged for a closer look

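Tpp1 and Grn changed differently in the 2 lines at 7 days after 5 Gy by a test of the difference itself. For Tpp1 the fall was smaller in USFKD cells, by 1.07 on the log2 scale, with all 3 irradiated arrays of either line below its untreated arrays. For Grn it was smaller by 1.12, again with no overlap between irradiated and untreated arrays in either line. The difference for Tpp1 lay between 0.93 and 1.25 over 20 other settings and lost its call in 2 of them, and that for Grn lay between 0.93 and 1.29 and lost its call in 14. Both genes were also higher in untreated USFKD cells than in untreated sshRNA cells, by 2.30 and 0.80.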

How the results depend on the processing

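Of 67 calls of a lysosomal gene in a comparison, 51 were kept in every alternative run and 16 were lost in at least 1, and none turned its direction. The count of called genes for the difference in response at 7 days, 2, was 1 with cyclic loess, 1 with bright clusters centred, 1 without variance moderation, 0 with only the arrays compared and 1 with the replicate block, which lost Grn (adjusted p = 0.0507). For sshRNA 1d IR against sshRNA no IR, with 0 called, centring on bright clusters gave 1 (Lipa). With each array left out in turn, the counts ran from 12 to 15 for the knockdown without irradiation, 13 to 14 at 1 day and 12 to 13 at 7 days, from 0 to 0 and 13 to 17 for USFKD cells at 1 and 7 days, from 0 to 1 and 10 to 14 for sshRNA cells, and from 0 to 0 and 0 to 4 for the differences in response at 1 and 7 days. With only the arrays compared, Hexa at 1 day (adjusted p = 0.0634), Npc2 without irradiation (adjusted p = 0.0598) and, in USFKD 7d IR against USFKD no IR, Atp6ap1, Gla, Npc2 and Psap lost their calls (adjusted p between 0.0561 and 0.128). Just outside the threshold, Man2b1 and Ppt1 were called in USFKD no IR under 5 and 4 alternatives, and Ids in USFKD 7d IR against sshRNA 7d IR under 4. Same-numbered arrays of the 2 lines did not deviate together at every time (correlations of -0.0001 to 0.040 without irradiation, 0.016 to 0.246 at 1 day and -0.096 to 0.008 at 7 days), with 2 of the 3 pairs over 0.2 at 1 day, and the replicate block changed no other count by over 1.5 times. Centring on bright clusters moved the median of all genes by -0.14 in USFKD cells at 1 and at 7 days, and cyclic loess moved it by -0.11 in USFKD cells and -0.10 in sshRNA cells at 7 days.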
